A study of Rattus norvegicus with 18 samples.

Results

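Transcripts of 10 mast cell genes were followed in sorted A2B5+ and O4+ brain cells of male rats at postnatal day 7. The genes are the carboxypeptidase Cpa3, the chymases and related proteases Cma1, Mcpt1l1 and Mcpt4, the tryptases Tpsab1 and Tpsb2, the histamine-forming enzyme Hdc, the IgE receptor chains Fcer1a and Ms4a2, and the prostaglandin D synthase Hpgds. They were selected on a measured difference between the O4+ and A2B5+ arrays, and were taken as every probe set annotated with 1 of these symbols and no other, which gave 11 of the 15923 probe sets on array type A and 0 of the 15333 on array type B, or 10 of 11982 genes tested over both types. Both populations were sorted by flow cytometry from dissociated whole brain, A2B5+ cells with an antibody that binds gangliosides of glial progenitors and some neurons, O4+ cells with an antibody that binds sulfatide and related lipids of late progenitors and oligodendrocytes. On array type A there were 5 A2B5+ and 4 O4+ samples, each from a litter of 10 pups, so that every array averages over the cells of several animals. The labels give no other treatment, genotype or strain. They name no selection for or against blood or immune cells.

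Mast cells are tissue-resident cells of the blood lineage that store proteases, histamine and heparin-like proteoglycan in granules and release them when IgE bound to its high-affinity receptor is cross-linked. Carboxypeptidase, chymases and tryptases are the bulk proteins of these granules. In the rodent brain mast cells lie mainly along vessels, in the meninges and in the thalamus, and their number is known to be high in early postnatal life.

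Values are the authors' linear ratios, which for each of the 10 tested probe sets have a median of 1 over the 9 arrays. A ratio can be followed from array to array for a gene, but levels cannot be compared between genes. Testing was limited to probe sets that reached a ratio of 1 on 4 or more arrays. A gene is said to be called lower or higher where limma's p, adjusted over the tested probe sets of the array type, was under 0.05. The 10 genes were chosen with this contrast between the populations known, so their differences are a description and are given without p-values. In bulk RNA such as this, fewer cells of a type and less RNA per cell cannot be told apart.

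All of the genes but Mcpt4 were lower in O4+ cells, and Mcpt4 was slightly higher. The call was lower for 9 of 10 tested probe sets and higher for 1, where 14.7% of all 13098 tested probe sets on array A were called lower and 32.5% higher. For 8 of the 9 every O4+ value lay below every A2B5+ value, which held for 10.7% of all tested probe sets, while every O4+ value lay above every A2B5+ value for 33.3% of probe sets and 0 of the tested members. All 9 have a ratio of at least 1 on 5 arrays, and for these 8 they are the A2B5+ arrays, so these passed the filter through the population in which they are high. The second probe set of Ms4a2 did not pass, and its O4+ values lay above its A2B5+ values.

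The genes that fell together and the one that did not can be set beside the sequence before their starts. Windows of 200 bases ending just before the annotated start were found for 8 of the 10 genes in RefSeq (GRCr8), and those of 5 genes that hold AGATAA or TGATAA, forms of the motif read by GATA factors such as GATA2, are shown. Capitals mark the motif, and TTATCT and TTATCA are the same words on the opposite strand.
Cpa3, chr2:104673238-104673437, minus strand: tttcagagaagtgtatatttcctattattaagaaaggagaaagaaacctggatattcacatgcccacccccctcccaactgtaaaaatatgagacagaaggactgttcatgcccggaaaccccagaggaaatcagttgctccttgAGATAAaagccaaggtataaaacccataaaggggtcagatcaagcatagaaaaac
Cma1, chr15:33390134-33390333, minus strand: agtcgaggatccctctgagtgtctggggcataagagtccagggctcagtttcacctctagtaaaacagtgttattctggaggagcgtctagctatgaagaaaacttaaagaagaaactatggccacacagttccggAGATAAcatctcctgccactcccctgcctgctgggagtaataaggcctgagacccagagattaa
Fcer1a, chr13:88224680-88224879, minus strand: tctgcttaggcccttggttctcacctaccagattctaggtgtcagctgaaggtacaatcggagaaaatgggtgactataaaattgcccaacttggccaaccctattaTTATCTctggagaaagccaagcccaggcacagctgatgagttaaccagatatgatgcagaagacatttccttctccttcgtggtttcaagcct
Mcpt1l1, chr15:33876896-33877095, minus strand: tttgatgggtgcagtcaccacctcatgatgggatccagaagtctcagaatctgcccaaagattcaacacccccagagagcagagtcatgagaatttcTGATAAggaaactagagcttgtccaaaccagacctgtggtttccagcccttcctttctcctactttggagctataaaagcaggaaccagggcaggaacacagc
Mcpt4, chr15:33471291-33471490, plus strand: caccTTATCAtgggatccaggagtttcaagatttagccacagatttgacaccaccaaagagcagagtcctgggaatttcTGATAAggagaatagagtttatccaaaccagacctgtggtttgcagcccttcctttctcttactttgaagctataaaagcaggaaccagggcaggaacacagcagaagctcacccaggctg

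The first base of the motif lay 55 bases before the start of Cpa3, 64 before Cma1, 93 before Fcer1a and 103 before Mcpt1l1. Mcpt4 held TGATAA at 121 bases and, on the opposite strand, at 196. On either strand, AGATAA or TGATAA was in 13.2% of the windows of 27457 genes and in 5 of 8 here. The windows of Tpsab1, Tpsb2 and Hdc, all lower in O4+ cells, held neither word, while that of Mcpt4 did. The words differ in their first base, so no match is counted under both. The 5 include Mcpt1l1 and Mcpt4, whose windows are alike, also around TGATAA, so the 8 windows are not independent. The word TATAAA was in the windows of Cpa3, Mcpt1l1, Mcpt4 and Fcer1a, against 10.5% of all windows. Its first base lay 40, 32, 50 and 125 bases before their starts, in that order. CATGTG, a word read by MITF, was in the window of Cpa3, against 9.31%. Mcpt1l1 and Mcpt4 share a run of 35 identical bases across the word TATAAA, where the other 27 pairs of windows share runs of at most 10. These matches are descriptions; Mcpt1l1 was lower in O4+ cells and Mcpt4 was not.

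Cpa3, the carboxypeptidase that trims peptides within the granule, had ratios of 1.28, 3.20, 1, 2.44 and 3.89 in A2B5+ replicates 1 to 5, and 0.248, 0.184, 0.130 and 0.0923 in O4+ replicates 1 to 4. Every O4+ array lay below the lowest A2B5+ array, replicate 3. The log2 difference, O4+ minus A2B5+, was -3.76 ± 0.43 (SE of the fit, n = 5 and 4), or 13.6-fold lower in O4+ cells.

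Mcpt1l1, a chymase-like protease of rat mast cells, had the greatest difference of the 10. Its ratios were 1.84, 3.21, 1, 2.06 and 3.21 in A2B5+ replicates 1 to 5, and 0.170, 0.253, 0.0678 and 0.0926 in O4+ replicates 1 to 4. The log2 difference was -4.02 ± 0.44, or 16.2-fold, and the lowest A2B5+ value was 3.95-fold above the highest O4+ value. The chymase Cma1 had ratios of 2.69, 8.57, 1, 3.34 and 4.79 against 0.429, 0.240, 0.244 and 0.233. Its groups did not overlap either, and the difference was -3.56 ± 0.51, or 11.8-fold. The annotation places Cma1, Mcpt4 and Mcpt1l1 in 1 cluster on chromosome 15, where 14 protein-coding genes lie between Cma1 and Mcpt1l1. A probe set of one chymase may read another, which was not tested here.

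Mcpt4, another protease of that cluster, went the other way. Its ratios were 0.601, 0.911, 0.905, 1 and 1.03 in A2B5+ replicates 1 to 5 and 0.935, 1.52, 1.45 and 1.29 in O4+ replicates 1 to 4, and the groups overlapped. The log2 difference of 0.54 ± 0.20 was called, but the call ended once each array was centred on its median (0.37 ± 0.18). It also ended on leaving out any 1 of 7 of the 9 arrays, all except A2B5+ replicate 5 and O4+ replicate 1. Mcpt4 followed the arrays much as probe sets with a median ratio below 1 do. The median of 2910 such probe sets was 0.33 higher in O4+ than in A2B5+ arrays on the log2 scale, Mcpt4 correlated with that median at r = 0.86 over the 9 arrays, and its difference was 0.22 after subtracting it. The correlations of the 9 lower genes with the same median lay between -0.78 and -0.31, those of their tested probe sets. Because that median is itself higher in O4+ arrays, genes selected as lower in O4+ cells tend to correlate negatively with it. A gene higher in O4+ cells tends to correlate positively, so the signs of these r values add nothing to the differences.

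Both tryptases were lower in O4+ cells. Tpsab1 had ratios of 1.47, 6.58, 1, 2.12 and 6.38 in A2B5+ replicates 1 to 5. Its O4+ values were 0.436, 0.454, 0.446 and 0.442, a spread of only 0.024 (SD of log2 ratios). The difference was -2.58 ± 0.53, or 5.97-fold, and whether these closely placed values are the lowest that the probe set can read was not tested. Tpsb2, whose gene is the direct protein-coding neighbour of Tpsab1 on chromosome 10, had ratios of 1.17, 2.33, 1, 1.79 and 2.26 against 0.836, 0.855, 0.577 and 0.614. Its difference was the least of the 9, at -1.19 ± 0.27, and the groups did not overlap.

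Hdc, which turns histidine into histamine, had ratios of 4.29, 4.97, 1, 1.43 and 5.22 in A2B5+ replicates 1 to 5 and 0.478, 0.666, 0.352 and 0.407 in O4+ replicates 1 to 4. The log2 difference was -2.58 ± 0.50, or 5.97-fold. Replicate 1 of A2B5+ was among the high arrays for Hdc, whereas it was the second lowest A2B5+ array for the 5 protease genes Cpa3, Cma1, Mcpt1l1, Tpsab1 and Tpsb2.

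Fcer1a, the IgE-binding chain of the receptor, had ratios of 1.66, 4.97, 1, 2.24 and 7.32 in A2B5+ replicates 1 to 5 and 0.461, 0.551, 0.390 and 0.338 in O4+ replicates 1 to 4. The log2 difference was -2.64 ± 0.51, or 6.23-fold, with no overlap. Ms4a2, the receptor's signal-amplifying beta chain, is read by 2 probe sets that differed. The first had ratios of 1.05, 3.57, 1, 1.57 and 6.02 against 0.744, 0.724, 0.525 and 0.998, a difference of -1.49 ± 0.50 in which the populations only just failed to overlap. The second had ratios of 0.775 to 0.962 in A2B5+ cells and 0.990 to 2.06 in O4+ cells, was at least 1 on only 3 arrays and so was not tested. It correlated with the median of low probe sets, which is also higher in O4+ arrays, at r = 0.75.

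Hpgds, which makes prostaglandin D2 in mast cells and is also known in microglia, had ratios of 0.857, 2.07, 1, 1.43 and 2.83 in A2B5+ replicates 1 to 5 and 0.534, 1.57, 0.490 and 0.273 in O4+ replicates 1 to 4. O4+ replicate 2 was above 3 of the A2B5+ arrays. The log2 difference was -1.36 ± 0.49, and -1.84 without that array. The call of Hpgds ended on leaving out A2B5+ replicate 2, 4 or 5 or O4+ replicate 1, 3 or 4, with differences of -1.37 to -0.997. That of Ms4a2 ended without A2B5+ replicate 2 or O4+ replicate 1, 2 or 3, with differences of -1.497 to -1.29. The calls of the other 7 lower genes did not end with any array left out.

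**Figure D1:**
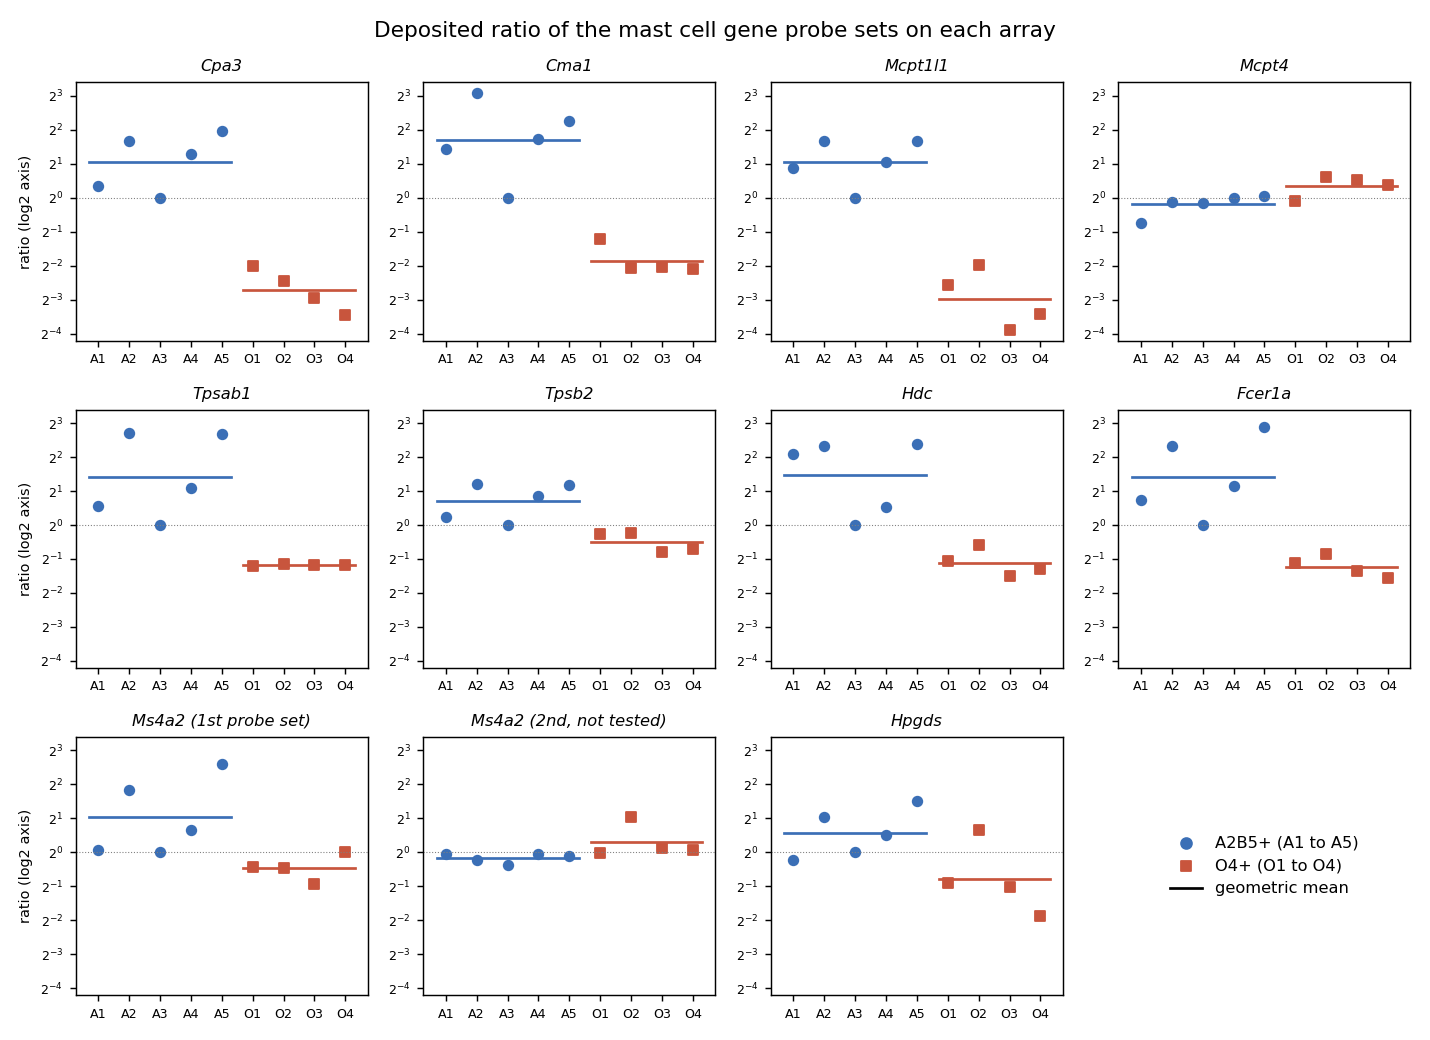
Each panel gives the deposited ratio (log2 axis) of 1 probe set on the 9 arrays of type A, with A2B5+ replicates as circles, O4+ replicates as squares and a line at each population's geometric mean. Cpa3, Cma1, Mcpt1l1, Tpsab1, Tpsb2, Hdc, Fcer1a and the first Ms4a2 probe set have all O4+ values below all A2B5+ values, while Hpgds overlaps through O4+ replicate 2 and Mcpt4 lies slightly higher in O4+ cells.

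Within the A2B5+ population the 9 lower genes varied widely and largely in step. Their mean log2 ratio was 0.68, 1.99, 0, 0.98 and 2.12 in A2B5+ replicates 1 to 5 (1.16 ± 0.90, SD, n = 5) and -1.20, -1.01, -1.74 and -1.73 in O4+ replicates 1 to 4 (-1.42 ± 0.37, SD, n = 4). A2B5+ replicates 2 and 5 were the highest of the 5 arrays for all 9, an order found in 16.6% of the 13098 tested probe sets. Replicate 3 was the lowest for 8, an order found in 20.1%, and both held for 8 genes against 7.38%. The exception was Hpgds, lowest in replicate 1. Where all O4+ values are below all A2B5+ values, the lowest A2B5+ array is the median of the 9, so its ratio is 1.

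The highest A2B5+ array was above the lowest by 8.57-fold for Cma1, 7.32-fold for Fcer1a, 6.58-fold for Tpsab1, 6.02-fold for the first Ms4a2 probe set and 5.22-fold for Hdc. Ranges as wide as these were found in 0.405%, 0.618%, 0.779%, 1.05% and 1.5% of tested probe sets. Cpa3, Hpgds and Mcpt1l1 ranged over 3.89-fold, 3.30-fold and 3.21-fold, and Tpsb2 over 2.33-fold, which 14% of probe sets reached. Mcpt4 ranged over only 1.72-fold, reached by 36.1%. In all, 9 of the 10 ranged over more than 2-fold against 22.5% of probe sets, and 8 over more than 3-fold against 6.96%.

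Over the 5 A2B5+ arrays the 28 pairs among the lower genes other than Hdc had a median r of 0.94 (0.72 to 0.99). The 8 pairs of Hdc with them had a median r of 0.70 (0.51 to 0.82), and by rank a rho of 0.7 to 0.9. Mcpt4 had r = 0.59 with Cpa3 and -0.23 with Hdc. These are correlations over 5 arrays that share any difference in scale between arrays, and over the 4 O4+ arrays the 28 pairs had a median r of 0.39 (-0.73 to 0.97) and the 8 pairs of Hdc one of 0.69 (0.08 to 0.97).

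**Figure D2:**
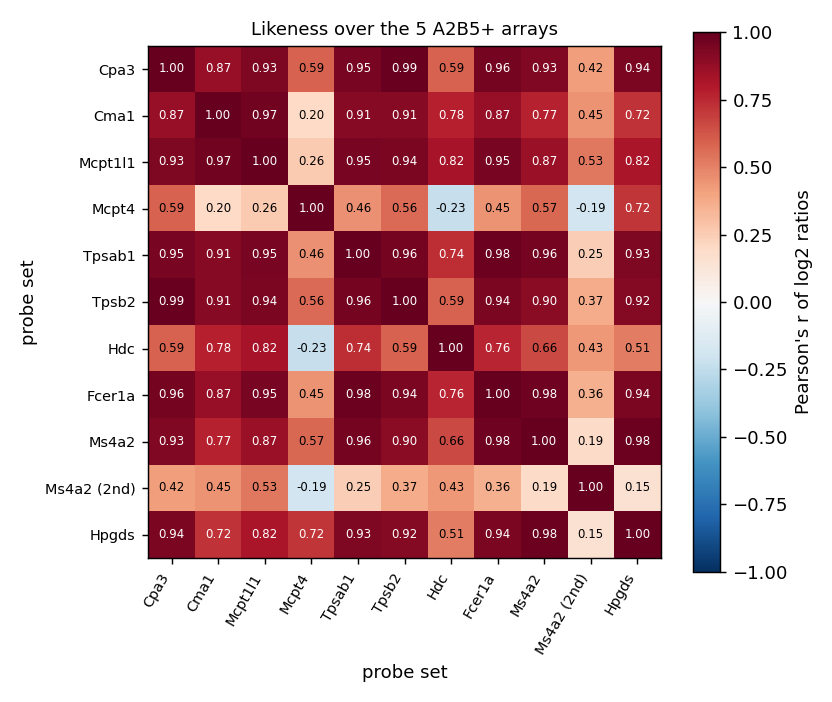
Pearson correlations of the log2 ratios of the 11 probe sets over the 5 A2B5+ arrays, with genes on both axes and the value in each cell. All genes but Mcpt4 and Hdc, and except the second Ms4a2 probe set, form a block of high values of 0.72 to 0.99.

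The genes whose log2 ratios followed Cpa3 most closely over all 9 arrays were Icoslg, Pm20d2, Tlr7, Arrb2, Tal1, Pik3ap1, Map3k8 and Caprin2, with r from 0.988 to 0.983, and 339 of 9044 genes had an r above 0.9. Mcpt1l1 ranked 11, Cma1 24, Fcer1a 44, Tpsb2 55, Tpsab1 143, Hdc 322, Ms4a2 781 and Hpgds 847. Mcpt4 ranked 5585, with r = -0.61. Over all 9 arrays r takes in the difference between the populations on which the members were selected. These ranks therefore follow in part from that selection. Over the A2B5+ arrays alone, among 1877 genes with a range of at least 1 on the log2 scale, Serpinb1a was closest (r = 0.998), followed by Tspan8, the member Tpsb2, Lap3, Galc, Pld3, Tradd and Naaa (0.985 to 0.991). Of these, Serpinb1a and Tspan8 differed by -1.30 ± 0.39 and -1.96 ± 0.30 between the populations (limma adjusted p = 0.021 and 5.9e-04) and Naaa by -1.51 ± 0.41 (adjusted p = 0.015), while Lap3, Galc, Pld3 and Tradd were not called. Among the 1877 genes, 144 had an r above 0.9 with Cpa3 over the A2B5+ arrays. There Fcer1a ranked 39, Tpsab1 57, Hpgds 70, Mcpt1l1 83, Ms4a2 90, Cma1 188 and Hdc 610, and Mcpt4 did not reach the range. A like list for Hdc was made after its values were seen. Over the A2B5+ arrays it was led by Scly and Ptgs2 (r = 0.999), Slc44a4, Pvr, Hyou1, Htatip2, the transcription factor Klf4 and Cd68.

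The other marker lists shared the order of the mast cell genes over the A2B5+ arrays in part or not at all. The mean log2 ratio of 13 microglia markers was -0.05, 0.88, 0.12, 0.58 and 0.81 in A2B5+ replicates 1 to 5, highest in replicates 2 and 5 as for the mast cell genes but lowest in replicate 1. It ran from -1.42 to 0.10 in O4+ arrays, with O4+ replicate 2 the highest. Single microglia markers differed in their order over the A2B5+ arrays. Tyrobp, C1qc, Cd68 and, on array B, Trem2 had replicates 2 and 5 highest and replicate 3 lowest, as most of the mast cell genes did. The other tested microglia markers were lowest in replicate 1, as Hpgds was. The mean of 5 border macrophage markers was 1.35, 0.56, -0.81, -0.70 and 1.27, high in replicate 1 and low in replicates 3 and 4, and from -1.36 to 0.53 in O4+ arrays. That of 10 endothelial markers was 0.67, 0.58, 0.19, 0.32 and 0.22 and from -2.31 to -1.11 in O4+ arrays. That of 14 markers of meninges and fibroblasts lay between -0.16 and 0.28 in A2B5+ and between -0.62 and 0.39 in O4+ arrays.

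**Figure D3:**
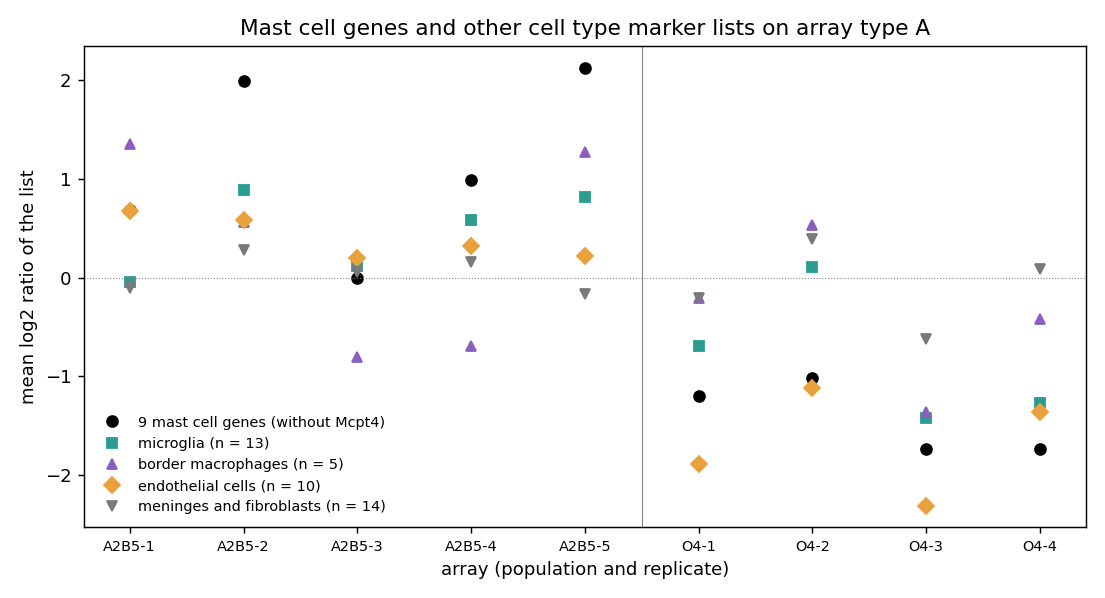
Mean log2 ratio of 9 mast cell genes and of 4 marker lists on each array of type A, with A2B5+ arrays left of the line and O4+ arrays right of it. The mast cell genes span 0 to 2.12 over the A2B5+ arrays, against -0.81 to 1.35 for border macrophage markers, a span about as wide, and 0.19 to 0.67 for endothelial markers.

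Over both array types, 12 of 14 microglia markers and 13 of 13 endothelial markers were lower in O4+ cells and 0 of either list higher, where 17.8% of all 11982 genes were called lower and 28.8% higher. On array B, which holds some of these genes, 13.8% of 11136 probe sets were called lower and 9.93% higher, all O4+ values lay below all A2B5+ values for 13% and above for 12.5%. Of 8 border macrophage markers 1 was lower (Lyve1), of 14 meninges and fibroblast markers 1 was lower (Dcn) and 1 higher, of 3 neutrophil markers 1 was lower and 2 higher, of 6 lymphocyte markers 2 were higher, and of 4 erythroid markers 2 were lower and 1 higher. With arrays centred on their medians the higher calls in these lists ended, those of S100a8 and S100a9 (neutrophils), Cd2 and Il2rb (lymphocytes), Slc4a1 (erythroid cells) and Crabp2 (meninges and fibroblasts). All 10 tested oligodendrocyte markers were higher in O4+ cells, while of 6 progenitor markers 4 were lower and 2 higher. Ratios hold no level, so which markers are absent cannot be read from them. The part of these cell types in the mast cell gene differences was not tested.

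Other genes of mast cell biology were taken from lists made for their role. The median difference of all genes was 0.14, and values below are not corrected for it. The counts of each list stand against 17.8% of all genes called lower and 28.8% called higher, and nothing is called particular to a list from them. Among genes that store or release granule contents, 3 of 12 were lower and 1 higher, with a list median of -0.13. The proteoglycan core protein Srgn, on which granule proteases are packed, was lower by 2.07 ± 0.21 (limma adjusted p = 4.9e-05), with log2 ratios of 0 to 0.73 in A2B5+ and -2.08 to -1.38 in O4+ arrays. Ctsc, the protease that activates chymases and tryptases, was lower by 1.08 ± 0.35 (adjusted p = 0.028), and the vesicle GTPase Rab27a by 1.06 ± 0.29 (adjusted p = 0.015). The vesicle fusion protein Vamp7 was higher by 1.38 ± 0.21 (adjusted p = 5.5e-04). Slc18a2, which loads histamine into granules, differed by 0.23 ± 0.20 (adjusted p = 0.36), and the granule membrane protein Cd63 by -0.05 ± 0.14 (adjusted p = 0.78).

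Of 19 genes that signal from the IgE receptor 12 were lower and 1 higher in O4+ cells, with a list median of -0.86. With 1 array left out, 8 to 12 were called lower. The largest falls were of the lipid phosphatase Inpp5d (-1.67 ± 0.28, limma adjusted p = 1.0e-03), the kinase Btk (-1.60 ± 0.30, adjusted p = 0.0021) and the adaptor Lcp2 (-1.59 ± 0.26, adjusted p = 8.4e-04). Fcer1g, the gamma chain shared by the IgE receptor and other Fc receptors, fell by 0.86 ± 0.23 (adjusted p = 0.013), and the kinases Lyn and Syk differed by -1.10 ± 0.29 and -1.34 ± 0.38 (adjusted p = 0.013 and 0.0165). For Fcer1g, Lyn and Syk, O4+ replicate 2 lay within the A2B5+ range. The call of Fcer1g did not end with any array left out. The kinase Fyn, which also acts in oligodendrocytes, was higher by 2.51 ± 0.36 (adjusted p = 4.6e-04). Most of these signalling genes are known in microglia too, whose markers were lower as given above.

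In eicosanoid synthesis 6 of 11 were lower and 1 higher, with a list median of -1.11. The cyclooxygenases Ptgs1 and Ptgs2 fell by 2.06 ± 0.36 and 1.71 ± 0.57 (limma adjusted p = 0.0013 and 0.033), and Ltc4s, the synthase of leukotriene C4, by 1.75 ± 0.41 (adjusted p = 0.0070). Lta4h was higher by 0.51 ± 0.15 (adjusted p = 0.021), a call that ended with arrays centred on their medians. Without O4+ replicate 3 the lower count was 3. The log2 ratio of Ltc4s was 0 in O4+ replicate 2, against -1.95 to -1.56 in the other O4+ arrays and -0.10 to 1.17 in A2B5+ arrays.

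Of the growth factors and transcription factors of mast cells 5 of 12 were lower and 4 higher, the latter near the share of all genes, and the list median was 0.25. Tal1 and Lmo2, blood lineage factors also known in vessels, differed by -2.39 ± 0.28 and -2.23 ± 0.22 (limma adjusted p = 1.2e-04 and 4.7e-05), and Runx1 by -2.73 ± 0.65 (adjusted p = 0.0079). The log2 ratio of Runx1 was -4.44 in O4+ replicate 2, against -1.81 to -0.83 in the other O4+ arrays. Gata2, the GATA factor of mast cell precursors, was lower by 0.82 ± 0.25 (adjusted p = 0.025). Its log2 ratios were 0, 0.07, -0.19, 0.03 and 0.56 in A2B5+ replicates 1 to 5 against -1.03, 0.11, -0.97 and -0.997 in O4+ replicates 1 to 4, so that O4+ replicate 2 lay within the A2B5+ range, and the call ended without O4+ replicate 1, 3 or 4 (differences of -0.73 to -0.71). A second probe set of Gata2, on array B, did not fall. It had ratios of 0.614 to 0.708 in A2B5+ and 0.685 to 0.763 in O4+ cells, and did not pass the filter. Mitf, a factor of mast cells and melanocytes, was higher by 1.53 ± 0.34 (adjusted p = 0.0053), as were the receptor chain Il3ra by 0.97 ± 0.21 (adjusted p = 0.0044) and Stat5b by 0.51 ± 0.17 (adjusted p = 0.037), the last not with arrays centred. Kit, the stem cell factor receptor on which mast cells depend, did not pass the filter, with ratios of 0.648 to 0.851 in A2B5+ and 0.896 to 1.08 in O4+ cells. The receptor Il1rl1 differed by 0.25 ± 0.11 (adjusted p = 0.097).

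Of 30 listed relatives of the proteases 12 were tested, and none was called lower. The 12 had 6 called higher, with a list median of 0.43, and 1 was higher with arrays centred on their medians. On array A the mean log2 ratio of 10 of them was -0.40 to 0.15 in A2B5+ and 0.05 to 0.64 in O4+ arrays. The median of low probe sets ran from -0.98 to -0.69 and from -0.60 to -0.39, and both were highest in O4+ replicate 2. Whether these relatives read only background was not tested. Among the called genes the largest differences were those of Gzmn (0.93 ± 0.27), Mcpt9 (0.68 ± 0.23) and the basophil protease Mcpt8 (0.58 ± 0.17; limma adjusted p = 0.019, 0.034 and 0.021), and the calls of Mcpt9 and Mcpt8 ended with centring. Gzmf differed by 0.61 ± 0.23 and just missed the call (adjusted p = 0.0501). Mcpt1, another chymase of the cluster, had a difference of -0.72 ± 0.45 (adjusted p = 0.21), with a log2 ratio of 1.65 in A2B5+ replicate 5 and -0.58 to 0.50 in the other A2B5+ arrays.

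Of 5 tested genes that bind, degrade or carry histamine 2 were lower and 0 higher, with a list median of -0.09. The amine oxidase Maob fell by 1.92 ± 0.22 and the transporter Slc22a3 by 0.50 ± 0.17 (limma adjusted p = 1.2e-04 and 0.032), while Hnmt, the histamine methyltransferase of brain, differed by 0.41 ± 0.24 (adjusted p = 0.18). Among surface receptors and cytokines 5 of 15 were lower and 3 higher, with a list median of -0.52. The basophil and mast cell ectoenzyme Enpp3 fell by 2.14 ± 0.24 (adjusted p = 9.1e-05), Ccl7 by 1.80 ± 0.65 (adjusted p = 0.044, a call that ended with centring) and the complement receptor C3ar1 differed by -1.60 ± 0.31 (adjusted p = 0.0025). The tetraspanin Cd9 was higher by 1.52 ± 0.32 (adjusted p = 0.0038), as was Adora3 by 0.46 ± 0.16 (adjusted p = 0.039), though not with arrays centred on low probe sets. The cytokine Il5 was higher by 0.39 ± 0.12 (adjusted p = 0.025), a call that ended with centring.

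**Figure D4:**
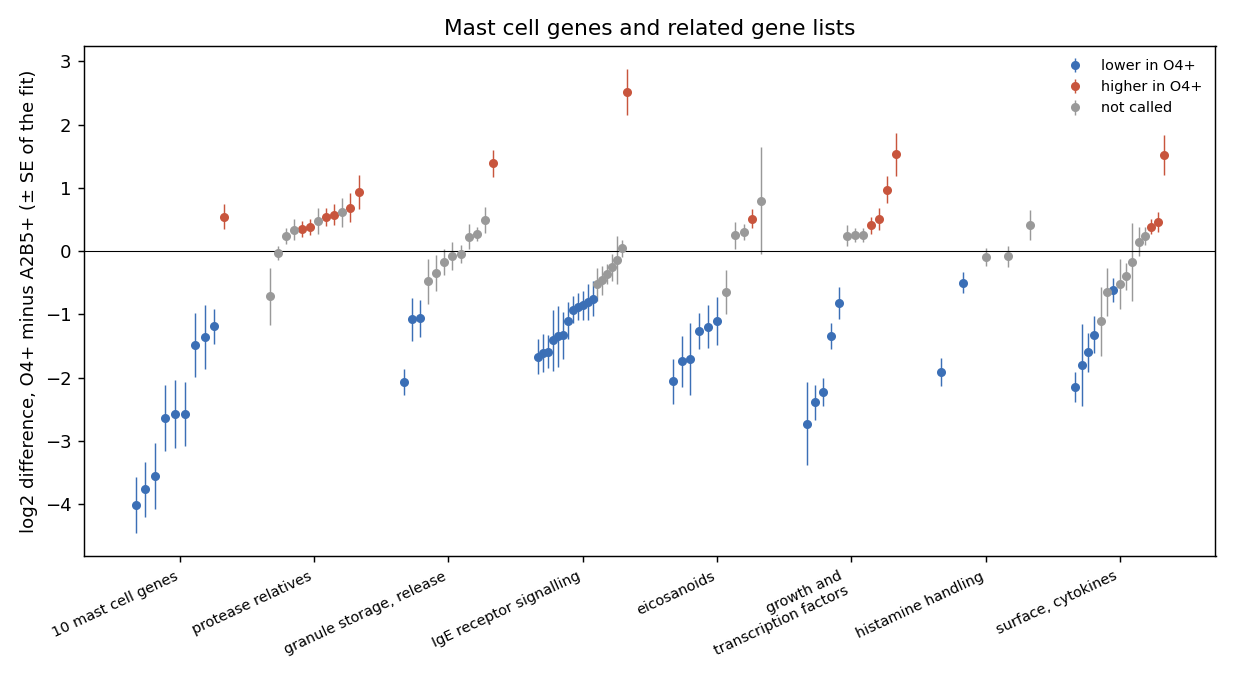
Log2 difference, O4+ minus A2B5+, of each tested gene with the standard error of the gene-level fit, grouped into the 10 mast cell genes and 7 lists of related genes. Points called lower are blue, points called higher are red and the rest grey. Of the 10 mast cell genes 9 are lower, and of 12 tested protease relatives 0 are, though whether the latter read only background was not tested.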

How the data were processed

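Total RNA of sorted cells was labelled with biotin and hybridised to 2 array types, per the labels. The authors deposited a linear ratio for every probe set and array. The submitters' processing notes name GCRMA with no version; the step from GCRMA to a ratio, and its reference, could not be found in the labels or file headers. Each ratio was put on the log2 scale with no pseudocount and no further normalization. Probe sets were named from the platform annotation. O4+ and A2B5+ arrays were compared in R 4.3.3 by the moderated two-sided test of limma 3.58.1, with population as the only term, with Benjamini-Hochberg adjustment over all 13098 tested probe sets of array A or, for lists, over 11982 genes (mean of a gene's tested probe sets with 1 symbol, array A before array B). The script was tested on simulated data, where 11.9%, 61.2% and 89.4% of log2 changes of 0.5, 1 and 2 were recovered on array A. There the noise was independent, no array was shifted, and only 66 or 67 of 13098 probe sets changed by each size. The data differ in these points, so the shares may not carry over to them. The number of arrays limits the precision.

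The members and lists were chosen with earlier results of these data known. Named were all members, the called genes with the 3 largest differences in each direction of a list of mast cell biology (marker lists are given by counts), further list genes (such as Kit, Slc18a2, Fcer1g and Gata2) for their role in mast cells and after their values were seen, and the 8 genes most like Cpa3. Labels do not say whether populations shared litters, and p-values measure the spread between these samples. Promoter windows and gene order came from RefSeq (GRCr8), where all 10 symbols matched and 8 had a window; protein sequences were not used here. Alternatives were centring, quantile normalization, other filters, array weights, a replicate block and leaving out each array. Arrays centred on low probe sets were added after seeing the data. A label of the array B samples names whole brain as their source, while their titles name the sorted population, which was used. Array medians of tested probe sets ran from -0.12 to 0 in A2B5+ and from 0.062 to 0.16 in O4+ arrays of type A (log2).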

Additional observations from a re-analysis of the deposited data

Results flagged for a closer look

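In 3 of 22 sets of replicate values 1 array lay far from the others by Dixon's criterion, which chance meets in about 1 of 20. Cma1 had a ratio of 0.429 in O4+ replicate 1, against 0.233 to 0.244 in the other O4+ arrays. Mcpt4 had a ratio of 0.601 in A2B5+ replicate 1, against 0.905 to 1.03 in the other A2B5+ arrays. The second probe set of Ms4a2 had a ratio of 2.06 in O4+ replicate 2, against 0.990 to 1.09 in the other O4+ arrays.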

How the results depend on the processing

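In its tested probe set, each of the 9 lower genes kept its direction under every alternative run. The second Ms4a2 probe set went the other way, with a difference of 0.46 ± 0.21 where no filter was used. The count called lower was 8 under quantile normalization, which ended the call of Ms4a2 (-2.00). That count was 9 under the other settings with all arrays, and 7 to 9 with an array left out. The count called higher, Mcpt4 alone, was 0 with arrays centred on their medians, quantile normalization, array weights or arrays centred on low probe sets (the last added after seeing the data), and 0 to 1 with an array left out. Of all probe sets on array A, 2439 were called higher with arrays centred, 2131 after quantile normalization, 7128 with no filter and 1648 with arrays centred on low probe sets, where 2945 were called lower.

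Among the lists, counts called lower kept within 1.5 times with all arrays, and counts called higher moved. With arrays centred, and likewise after quantile normalization, they were 0 for eicosanoid synthesis, 2 for growth and transcription factors and 1 for protease relatives. With arrays centred on low probe sets they were 0, 2 and 0, and 1 for surface receptors and cytokines. With no filter they were 4 for eicosanoid synthesis, 2 for granule genes, 10 for growth and transcription factors, 4 for histamine handling, 2 for IgE receptor signalling and 5 for surface receptors and cytokines. With array weights the granule count was 3. Leaving out 1 array gave 3 to 6 lower and 0 to 1 higher for eicosanoid synthesis, 1 to 3 higher for granule genes, 2 to 5 for growth and transcription factors, 2 to 8 for protease relatives, 1 to 4 for surface receptors and cytokines, and for histamine handling 1 to 2 lower and 0 to 1 higher. Causes were not tested.

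Same-numbered samples did not deviate together throughout (r = 0.02 to 0.30 on array A, -0.20 to 0.24 on array B), so the numbers were read as names. Only number 3 on array A and number 1 on array B had O4+ and A2B5+ samples that correlated best with their own number. With the replicate block, which drops A2B5+ replicate 5, 9 members were called lower and 1 higher, and 2 granule genes were called higher. Signal over background is not held in the ratios, which limits what low values can show.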
